A study of Homo sapiens with 4 samples.

Results

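Messenger RNA levels in A549 cells given 25 μmol/L dihydroberberine for 48 h were set against those in untreated A549 cells grown for the same 48 h, with 1 array for each. A549 is an established line from a human lung adenocarcinoma, and dihydroberberine is a reduced form of berberine, an alkaloid of plants such as Coptis. The series held 2 further arrays at 48 h, 1 of cells given 25 μmol/L dihydroberberine with 2 μmol/L sunitinib and 1 of cells given 2 μmol/L sunitinib, an inhibitor of receptor tyrosine kinases. The treatment label of the untreated cells is "none", and no vehicle is named for any group. Values are log2 signals, so that a difference of 1 is a 2-fold difference, and every difference is dihydroberberine minus untreated unless another is named. With 1 array per group there is no replicate check and no test between the groups, so "higher" and "lower" compare these 2 arrays only. The spread between probe sets of the same gene, each a set of short probes against a stretch of its transcript, is the only spread given, and it does not measure error between cultures. In a bulk array a higher signal cannot be told apart from a larger share of cells that express the gene.

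Of 18132 genes with a probe set of their own, 10791 made up the comparison. Each gene was read from the probe set with the highest mean signal over the 4 arrays, and was kept where the dihydroberberine or the untreated array reached 6.75, the median of all gene probe sets, called the floor below. Of the kept genes, 10037 reached the floor on both arrays, 480 on the dihydroberberine array alone and 274 on the untreated array alone, and 7341 genes under it on both were left out. The genes nearest to the floor show how the rule divides them. H2AC15, a histone gene, was just inside at 6.75 with dihydroberberine and 6.29 untreated, and SOX14, a developmental transcription factor, was just outside at 6.75 with dihydroberberine and 6.45 untreated.

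Berberine and its reduced form are known to inhibit complex I of the mitochondrial respiratory chain and to activate AMP-activated protein kinase (AMPK), the sensor of low cellular energy. Cells with inhibited respiration are known to draw more on glycolysis, and phosphorylated glucose controls MondoA, a transcription factor that with its partner MLX drives TXNIP and ARRDC4 from carbohydrate response elements next to CCAAT boxes. AMPK is known to restrain lipid synthesis, whose enzymes are transcribed by the sterol regulatory element binding proteins. Immediate early genes such as EGR1, JUN and DUSP1 are transcribed within minutes of kinase signalling, through CArG boxes bound by serum response factor, cyclic AMP response elements and AP-1 sites, and the DUSP phosphatases among them switch the MAP kinases off again.

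The 2 arrays had median signals of 6.76 with dihydroberberine and 6.73 untreated, and correlated with r = 0.986 over all gene probe sets. Several control probe sets differed between them. The Alu repeat control read 14.42 with dihydroberberine and 14.82 untreated, and the 18S ribosomal RNA controls 13.73 with dihydroberberine and 14.36 untreated, differences of -0.41 and -0.63, whereas these controls differed by 0.00 and 0.02 between the combination and sunitinib. Background probes whose G or C bases number 15 to 25 had a median of 7.15 with dihydroberberine and 6.70 untreated. The gap between the 3′ and 5′ probe sets of beta actin, which widens as RNA degrades, was 0.63 with dihydroberberine and 0.91 untreated. The same gap of GAPDH differed slightly the other way, at 0.045 with dihydroberberine and 0.025 untreated. The part of these shifts in the differences given here was not tested. Of 10 markers of A549 and lung epithelium, 8 were over the floor on both arrays, among them KRT18 at 14.39 with dihydroberberine and 14.17 untreated, while EPCAM (4.75 with dihydroberberine and 4.47 untreated) and CDH1 (4.87 with dihydroberberine and 4.45 untreated) were under it on both. Of 15 markers of leukocytes, endothelium, fibroblasts, neurons, glia and hepatocytes, 5 were over the floor on both arrays, with a range over all 15 of 3.92 to 8.42 with dihydroberberine and 3.84 to 8.82 untreated. PTPRC, the pan-leukocyte phosphatase CD45, was the dimmest, at 3.92 with dihydroberberine and 3.84 untreated. CD68, of the same leukocyte list, was over the floor at 8.42 with dihydroberberine and 8.16 untreated. The others over it on both arrays were VWF, PDGFRB, GFAP and APOA1.

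More genes were lower than higher with dihydroberberine. At a fixed size of 2-fold, 114 genes (1.06% of those compared) were higher and 382 (3.54%) lower. At 1.5-fold, 523 (4.85%) were higher and 1369 (12.7%) lower, and at 4-fold 14 were higher and 25 lower. Counts use the measured difference, also where 1 array was under the floor, whereas a fold printed for such a gene is taken against the floor and is a lower bound. The median difference of all 10791 genes was -0.03, the SD across genes was 0.477, and 5049 genes (46.8%) had a positive difference. The higher genes lay at a median untreated signal of 8.26 and the lower genes at 9.25. The untreated signal is a term of the difference that sorts the genes, so a gap in this direction follows in part from the sorting. When all genes were divided by signal into 10 bins of equal size, the median difference was 0.17 in the dimmest bin, -0.13 in the seventh and -0.05 in the brightest. Genes 2-fold lower were found throughout, with between 28 and 53 in each bin except the brightest, which held 10.

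**Figure D1:**
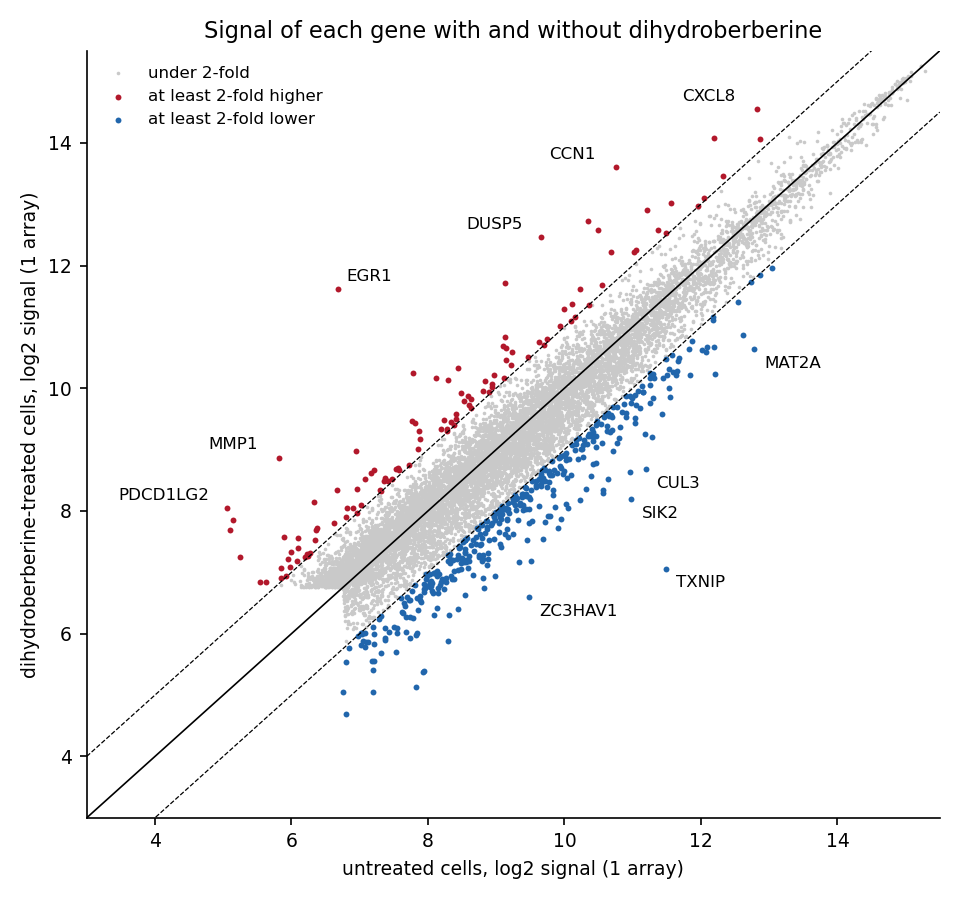
Log2 signal of each of the 10791 genes with dihydroberberine (vertical axis) against untreated (horizontal axis), 1 array each; the solid line marks equal signal and the dashed lines a 2-fold difference. The 114 red genes are at least 2-fold higher and the 382 blue genes at least 2-fold lower; EGR1, at 11.62 with dihydroberberine and 6.68 untreated, and TXNIP, at 7.06 with dihydroberberine and 11.49 untreated, stand farthest from the line of equal signal.

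The probe sets of a gene tell how far its value depends on the stretch of transcript that was read. Of the 114 higher genes, 66 had at least 2 probe sets over the floor, and in 63 of them all had a positive difference. Of the 382 lower genes, 237 had at least 2, and in 192 all had a negative difference. Among all 6263 genes compared that had at least 2, the probe sets shared a sign in 4360. At least 2 probe sets passed 2-fold in 48 of the higher and 126 of the lower genes. Over all 6263 genes with at least 2 probe sets, 60 (0.958%) had 2 or more of them 2-fold higher and 154 (2.46%) had 2 or more of them 2-fold lower. The median SD between probe sets was 0.248 in the higher genes and 0.392 in the lower, against 0.134 in all. The range over a gene's probe sets is given beside its value for some genes only. A gene without a printed range may still have probe sets that differ.

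EGR1, an immediate early zinc finger transcription factor, had the largest positive difference of all 10791 genes. It had a signal of 11.62 with dihydroberberine and 6.68 untreated, which was under the floor, so that it was at least 29.1-fold higher. All 6 of its probe sets over the floor were higher, 5 of them past 2-fold, with differences between 0.83 and 5.91. CCN1, a secreted matricellular protein, read 13.60 with dihydroberberine and 10.76 untreated (7.19-fold higher), and both of its probe sets gave at least 2.85. DUSP5, a nuclear phosphatase of ERK, read 12.46 with dihydroberberine and 9.66 untreated, and DUSP1, a phosphatase of p38, JNK and ERK, 14.08 with dihydroberberine and 12.20 untreated. DUSP6, the cytoplasmic ERK phosphatase, read 13.03 with dihydroberberine and 11.56 untreated, and all 4 of its probe sets passed 2-fold. TIPARP, an ADP-ribosyltransferase induced through the aryl hydrocarbon receptor, read 11.72 with dihydroberberine against 9.13 untreated. Each of these genes was brighter on the dihydroberberine array than on the untreated one in every probe set over the floor. DUSP5 had 1 such probe set. This agreement was a condition of the rule for the 20 highest genes, which named CCN1, DUSP5, DUSP1 and TIPARP.

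Of the 18 genes of the AP-1 and immediate early list, which holds IER genes beside transcription factors, 13 had a positive difference, with a median of 0.48 beside -0.03 for all genes, and 5 were at least 2-fold higher. With fewer than 75% of its members positive, the list was called neither higher nor lower. FOSL1, a Fos-family member of AP-1, read 10.24 with dihydroberberine and 7.79 untreated (5.49-fold higher), while its probe sets ranged from 0.82 to 2.46. JUN, its dimer partner, read 9.47 with dihydroberberine and 7.77 untreated, with probe sets from 0.81 to 1.71. MAFF, a small Maf protein, was at least 1.95-fold higher, and IER3, an early response gene that affects survival, was 2.90-fold higher. Other members differed little or the other way: FOS by 0.45, FOSB by -0.11, MYC by -0.10 and IER5 by -0.99. The phosphatases that oppose the MAP kinases were not uniformly higher either. Of 11 DUSP genes, DUSP5, DUSP1 and DUSP6 were past 2-fold, DUSP4 differed by 0.70, and DUSP3 by -0.72, and the list's median was -0.13.

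Promoter sequence is shown for 4 of the higher genes, the transcription factor EGR1, the phosphatase DUSP1 and the cytokines CXCL8 and IL1A, because each holds an element of the kind through which immediate early and inflammatory genes are known to be induced. The windows run from 250 bases before to 50 bases after the annotated start, on the strand of the gene, in RefSeq's GRCh38.p14, and were matched for 8947 of the 10791 genes. Capitals mark matches to the named motif on either strand. EGR1 (chr5:138465229-138465528, plus strand) holds 2 CArG boxes that begin 105 and 83 bases before the start. DUSP1 (chr5:172771146-172771445, minus strand) holds a cyclic AMP response element, TGACGTCA, 125 bases before the start and an E-box, CACGTG, 108 bases before it. CXCL8 (chr4:73740319-73740618, plus strand) holds the AP-1 site TGACTCA 137 bases before the start, and IL1A (chr2:112784444-112784743, minus strand) holds it 12 bases before the start and again, on the other strand, 38 bases after it.
EGR1: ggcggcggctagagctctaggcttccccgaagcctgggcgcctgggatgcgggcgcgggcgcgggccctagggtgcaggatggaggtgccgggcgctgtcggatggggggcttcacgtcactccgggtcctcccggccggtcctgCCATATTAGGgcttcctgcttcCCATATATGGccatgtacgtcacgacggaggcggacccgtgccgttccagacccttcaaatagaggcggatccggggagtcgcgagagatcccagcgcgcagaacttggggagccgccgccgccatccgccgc
DUSP1: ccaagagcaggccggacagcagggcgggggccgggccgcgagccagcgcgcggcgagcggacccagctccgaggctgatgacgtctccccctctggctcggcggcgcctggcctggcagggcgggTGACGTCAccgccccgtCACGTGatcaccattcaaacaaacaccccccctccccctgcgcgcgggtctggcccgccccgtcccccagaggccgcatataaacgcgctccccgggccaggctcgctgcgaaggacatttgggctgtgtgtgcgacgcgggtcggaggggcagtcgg
CXCL8: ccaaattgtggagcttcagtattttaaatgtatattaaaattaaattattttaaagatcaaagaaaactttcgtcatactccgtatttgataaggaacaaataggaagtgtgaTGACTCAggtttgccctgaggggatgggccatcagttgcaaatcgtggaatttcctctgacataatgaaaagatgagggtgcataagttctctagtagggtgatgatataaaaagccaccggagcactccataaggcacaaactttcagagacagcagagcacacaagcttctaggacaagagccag
IL1A: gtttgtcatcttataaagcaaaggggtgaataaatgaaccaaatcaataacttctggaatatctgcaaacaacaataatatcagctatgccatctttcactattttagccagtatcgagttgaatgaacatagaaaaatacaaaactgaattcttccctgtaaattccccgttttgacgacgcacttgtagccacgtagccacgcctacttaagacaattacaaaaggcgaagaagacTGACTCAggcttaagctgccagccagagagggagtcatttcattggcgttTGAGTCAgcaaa

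Across promoters, the AP-1 site occurred in 6.90% of the 87 higher genes that had a window, 3.90% of the 308 lower genes and 3.07% of all 8947. The cyclic AMP response element occurred in 5.75%, 3.25% and 3.39% of these groups, and the CArG box, searched by name, in 4.60%, 0.649% and 1.05%. The higher shares rest on 6, 5 and 4 genes. The TEAD site GGAATG was found in 12.6% of higher, 9.74% of lower and 10.6% of all promoters, and the antioxidant response element TGACNNNGC in 16.1%, 14.3% and 15.2%. In the same order, the dioxin response element core GCGTG had 51.7%, 53.9% and 51.1%. The CCAAT-enhancer and ATF response element TGATGNAA had 0%, 1.95% and 1.68%, and the cell cycle homology region TTTGAA 13.8%, 14.3% and 9.53%. The E2F site TTTGGCGC had 2.30%, 1.30% and 1.13%, and the SP and KLF box GGGCGG 66.7%, 73.1% and 70.9%. Each motif was searched on both strands and a match is a description of the letters, not of a bound site. The median G and C content was 64.0% in higher, 68.0% in lower and 65.3% in all promoters.

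Secreted mediators of inflammation were higher as a group. Of 15 chemokine and interleukin genes over the floor, 13 had a positive difference, the median was 0.41, and 3 were at least 2-fold higher. PTX3, the long pentraxin of innate immunity, read 10.17 with dihydroberberine and 8.12 untreated. IL1A, an epithelial interleukin, read 8.97 with dihydroberberine and 6.95 untreated, and CXCL8, a neutrophil attractant, 14.55 with dihydroberberine and 12.83 untreated, with all 3 of its probe sets at 1.72 or more. CXCL5 and CXCL3, related neutrophil chemokines, differed by 0.70 and 0.67, and IL6 by 0.41. CXCL1, another CXCL chemokine, and IL6R, the receptor chain for IL6, went against the group. CXCL1 differed by -0.23. IL6R read 6.01 with dihydroberberine, under the floor, and 7.55 untreated, at least 1.74-fold lower. Of the 15 subunits and inhibitors of NF-kB, a main driver of these cytokines, none was 2-fold higher and NFKBIZ was at least 1.06-fold lower, with a list median of 0.07. PDCD1LG2, an immune checkpoint ligand, read 8.05 with dihydroberberine and 5.05 untreated, at least 2.46-fold higher. CD55, a membrane inhibitor of complement, read 12.97 with dihydroberberine and 11.96 untreated, with 5 of 7 probe sets past 2-fold.

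The list of matrix proteases, plasminogen activation genes and their inhibitors showed positive differences in 12 of 13 genes, with a median of 0.31. MMP1, the interstitial collagenase, read 8.87 with dihydroberberine and 5.83 untreated, at least 4.34-fold higher. PLAT, tissue plasminogen activator, read 10.07 with dihydroberberine and 8.94 untreated, with 6 of 7 probe sets past 2-fold and none under 0.99. PLAUR, the urokinase receptor, was 2.18-fold higher, although its probe sets began at 0.58, and PLAU, urokinase, was 1.86-fold higher. MMP15, a membrane-bound matrix metalloprotease, was the 1 member with a negative difference, at -0.33. The protease inhibitors TIMP1, TIMP2 and SERPINE2 were among the 12 positive genes and differed by 0.49, 0.18 and 0.21. The plasminogen activators and the urokinase receptor were brighter on the dihydroberberine array, in all of their probe sets.

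The list of targets and components of the Hippo pathway, whose effectors are YAP and TAZ, divided. CCN1, NT5E, DLC1, AXL, CCN2 and GADD45A were at least 2-fold higher, F3 and WWTR1 were 2-fold lower, and 11 of 22 members had a positive difference. AXL, a receptor tyrosine kinase, read 8.67 with dihydroberberine and 7.21 untreated, and DLC1 9.43 with dihydroberberine and 7.81 untreated. CCN2, a matricellular protein related to CCN1, was 2.29-fold higher, and GADD45A, a DNA damage response gene, 2.12-fold higher. F3, the coagulation initiator tissue factor, read 7.44 with dihydroberberine and 8.76 untreated, and WWTR1, which encodes TAZ itself, 9.22 with dihydroberberine and 10.46 untreated, although its probe sets ranged from -1.25 to 0.00. NT5E, the ectonucleotidase CD73, makes adenosine outside the cell, and 6 of 8 genes of extracellular adenosine had a positive difference, with a median of 0.41. NT5E read 10.33 with dihydroberberine and 8.44 untreated, with probe sets from 1.56 to 2.24, ADA, adenosine deaminase, differed by 0.95, and ADORA2B, a low-affinity adenosine receptor, by -0.25. EPGN, epigen, a ligand of the EGF receptor, read 11.30 with dihydroberberine and 9.99 untreated, and all 8 of its probe sets passed 2-fold. The main list of EGF family ligands and receptors, which does not hold EPGN, had no member past 2-fold, and EGFR differed by -0.34.

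Some genes of the integrated stress response were higher. GDF15, a secreted stress hormone, read 12.58 with dihydroberberine and 10.49 untreated, with probe sets from 0.93 to 2.51. STC2, a secreted glycoprotein, read 10.68 with dihydroberberine and 9.11 untreated, with probe sets from 0.67 to 1.58. DDIT3, the factor CHOP, read 9.48 with dihydroberberine and 8.24 untreated. NUPR1, a small transcriptional regulator of stress, read 8.35 with dihydroberberine and 6.67 untreated, at least 3.02-fold higher. Of 17 genes of the ATF4 and CHOP list, 12 had a positive difference and 4 were 2-fold higher, with a median of 0.37, but CHAC1, a glutathione-degrading target of ATF4, differed by -0.78 and SESN2, a stress-induced regulator of mTORC1, by -0.67. Of 19 cytosolic tRNA synthetases, which charge amino acids onto tRNA, 17 had a positive difference, with a median of 0.26 and none past 2-fold. WARS1 and SARS1, for tryptophan and serine, differed by 0.98 and 0.93, whereas VARS1, for valine, differed by -0.45. PCK2, mitochondrial phosphoenolpyruvate carboxykinase, was 2.48-fold higher, and ASNS, asparagine synthetase, 1.82-fold higher. GADD45B, a stress sensor that binds MAP kinase kinases, read 12.72 with dihydroberberine and 10.35 untreated, with all 4 probe sets past 2-fold. Chaperones of the endoplasmic reticulum did not share this direction: 7 of 22 had a positive difference, HSPA5 differed by -0.21 and SDF2L1, a co-factor of HSPA5, was 2.14-fold lower.

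Other genes named by the same rules had varied roles. DDX10, an RNA helicase of ribosome assembly, read 10.13 with dihydroberberine and 8.30 untreated, and NIBAN1, a stress-responsive protein, 10.84 with dihydroberberine and 9.14 untreated, with probe sets from 0.55 to 1.82. PHLDA1, a pleckstrin homology protein induced by ERK, read 12.90 with dihydroberberine and 11.21 untreated, and ANXA3, a calcium-dependent membrane-binding annexin, 10.65 with dihydroberberine and 9.15 untreated. AKAP12, a scaffold for protein kinases A and C, was at least 2.62-fold higher. LGALS8, a galectin that recognises damaged vesicles, differed by 1.01, and 7 of its 11 probe sets passed 2-fold. MCL1, the antiapoptotic BCL2 relative, read 13.09 with dihydroberberine and 12.05 untreated (2.06-fold higher), with probe sets from 0.49 to 1.31, and CASP2, an initiator caspase, 9.89 with dihydroberberine and 11.04 untreated (2.22-fold lower). These were the members past 2-fold among 22 of the BCL2 family and caspases, of which 11 had a positive difference.

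**Figure D2:**
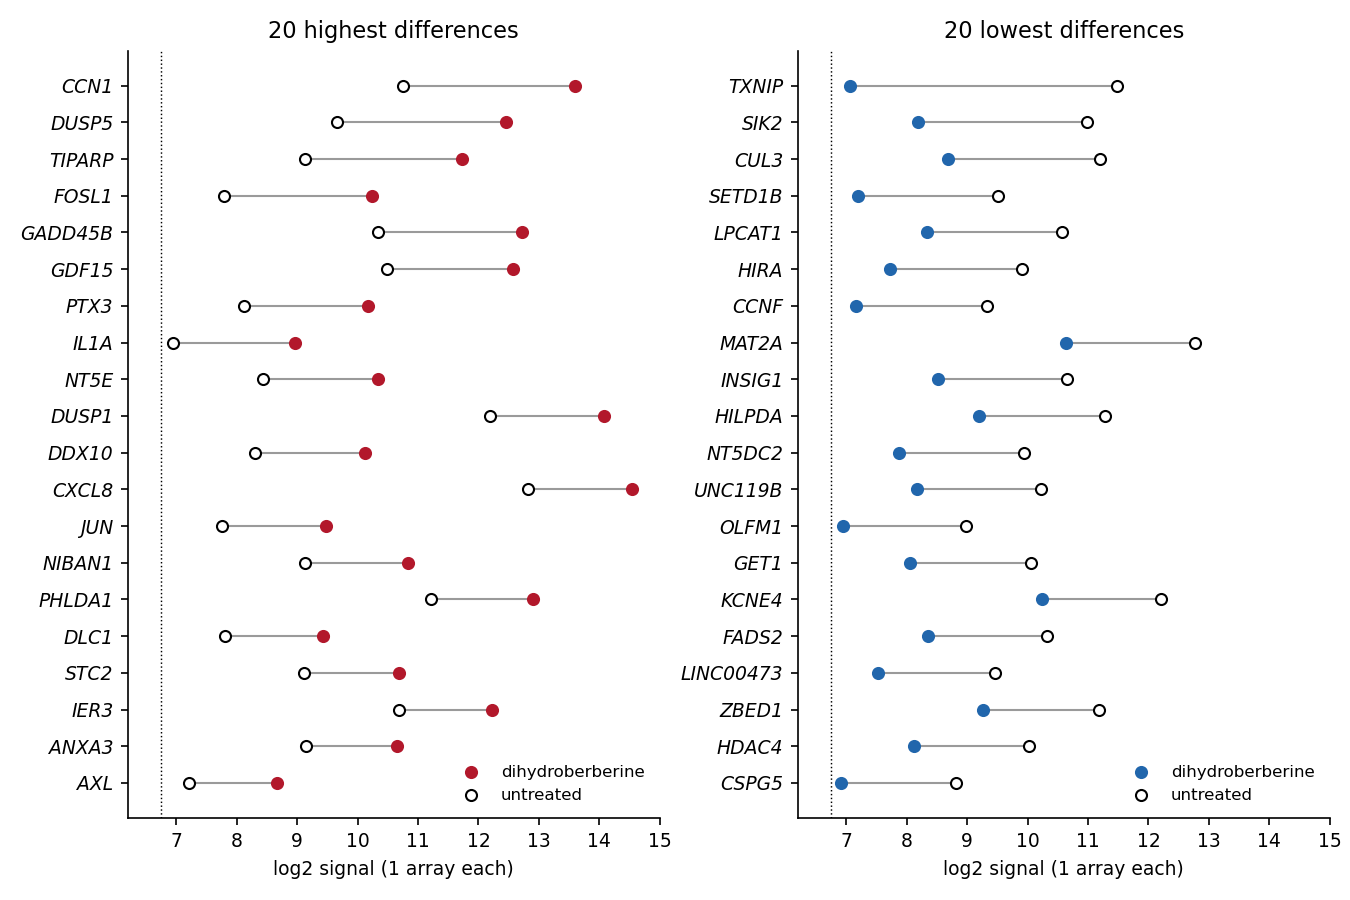
Log2 signal with dihydroberberine (filled) and untreated (open), 1 array each, of the 20 genes with the highest and the 20 with the lowest difference among genes over the floor (dotted line, 6.75) on both arrays whose probe sets all had that sign. The differences run from 1.46 for AXL to 2.85 for CCN1 on the left and from -1.91 for CSPG5 to -4.43 for TXNIP on the right.

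TXNIP had the largest negative difference of all 10791 genes. This arrestin-domain protein binds thioredoxin and lowers glucose uptake, and its signal was 7.06 with dihydroberberine and 11.49 untreated, 21.5-fold lower. All 5 of its probe sets were past 2-fold, with differences between -4.43 and -2.63. ARRDC4, its close paralogue, read 5.12 with dihydroberberine, under the floor, and 7.82 untreated, at least 2.10-fold lower. Other arrestin-domain genes read otherwise: ARRDC3, an adaptor for ubiquitin ligases, read 9.87 with dihydroberberine and 8.59 untreated (2.43-fold higher), while ARRDC1, an adaptor of vesicle budding, and ARRDC2 differed by 0.95 and -0.05. MLXIP, which encodes MondoA, read 8.07 with dihydroberberine and 9.86 untreated (3.46-fold lower), with both probe sets past 2-fold. MLX, its partner, differed by 0.30, and MLXIPL, its paralogue ChREBP, by 0.46. In the list of arrestin-domain and MondoA genes 6 of 14 had a positive difference, and the median was -0.06.

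The promoters of TXNIP and ARRDC4 are shown for the element that MondoA and MLX bind, which pairs letters close to an E-box with CCAAT boxes. Capitals mark CACGNG, a pattern close to the E-box chosen after values were seen, and CCAAT, each on either strand, in the same windows as above. TXNIP (chr1:145996530-145996829, minus strand) holds 4 matches to CACGNG, which begin 163, 88, 77 and 55 bases before the start, and 2 CCAAT boxes 140 and 105 bases before it. ARRDC4 (chr15:97960453-97960752, plus strand) holds CACGNG 210, 142 and 140 bases before the start, where the matches at 142 and 140 overlap, and 3 CCAAT boxes 187, 128 and 67 bases before it.
TXNIP: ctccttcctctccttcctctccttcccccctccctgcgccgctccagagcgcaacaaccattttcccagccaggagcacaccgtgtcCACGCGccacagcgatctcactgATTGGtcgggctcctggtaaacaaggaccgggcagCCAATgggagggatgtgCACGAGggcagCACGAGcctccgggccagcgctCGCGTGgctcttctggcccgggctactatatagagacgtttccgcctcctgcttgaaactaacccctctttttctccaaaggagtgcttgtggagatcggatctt
ARRDC4: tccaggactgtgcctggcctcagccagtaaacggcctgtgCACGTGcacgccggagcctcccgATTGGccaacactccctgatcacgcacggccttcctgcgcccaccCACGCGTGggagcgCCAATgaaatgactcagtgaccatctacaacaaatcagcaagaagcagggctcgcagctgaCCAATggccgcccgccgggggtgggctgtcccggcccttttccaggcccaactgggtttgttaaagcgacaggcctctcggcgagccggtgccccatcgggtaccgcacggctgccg
Both motifs are common among promoters. CACGNG occurred in 35.6% of higher, 46.1% of lower and 41.9% of all promoters, and CCAAT in 33.3%, 43.5% and 36.6%. The canonical E-box CACGTG, which CACGNG includes, occurred in 9.20%, 10.4% and 10.3%.

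SIK2 was among the lowest genes, while the subunits of AMPK were not. SIK2, a salt-inducible kinase activated by LKB1, read 8.19 with dihydroberberine and 10.98 untreated (6.88-fold lower), but its 5 probe sets ranged from -2.78 to -0.49. RPTOR, the subunit of mTORC1 that AMPK phosphorylates, read 7.32 with dihydroberberine and 8.55 untreated, with probe sets from -1.23 to -0.18, and MARK2, a polarity kinase, 7.41 with dihydroberberine and 8.47 untreated. PRKAA1, a catalytic subunit of AMPK, read 8.69 with dihydroberberine and 7.53 untreated (2.24-fold higher) in its brightest probe set and differed by -0.13 in the other. PRKAA2 differed by -0.09, PRKAB1 by 0.12, PRKAG1 by 0.42 and STK11, which encodes LKB1, by -0.60. Over the 19 genes of the AMPK list 7 had a positive difference, with a median of -0.08.

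Lipid synthesis was lower as a group. Of the 22 cholesterol genes, for synthesis or uptake, 19 were negative with a median of -0.61, and of 18 genes of fatty acid synthesis, elongation and desaturation, 14 were negative with a median of -0.54. INSIG1, the anchor that keeps SCAP from leaving the endoplasmic reticulum, read 8.52 with dihydroberberine and 10.65 untreated, with probe sets from -2.12 to -1.44. SQLE, squalene epoxidase, read 9.29 with dihydroberberine and 10.42 untreated, and HMGCS1, HMG-CoA synthase, 7.49 with dihydroberberine and 8.52 untreated. Enzymes further along the pathway were lower by less than 2-fold: IDI1 differed by -0.91, FDPS by -0.85, EBP by -0.89 and DHCR7 by -0.67. STARD4, a sterol carrier, and TM7SF2, a sterol reductase, went the other way at 0.45 and 0.45. Among the fatty acid genes, GPAM, which starts triglyceride synthesis, read 6.96 with dihydroberberine and 8.66 untreated (3.23-fold lower), and FADS2, a desaturase of polyunsaturated fatty acids, 8.36 with dihydroberberine and 10.32 untreated. ELOVL6, an elongase, and SCD, stearoyl-CoA desaturase, read 8.04 and 11.96 with dihydroberberine, against 9.47 and 13.04 untreated. FASN, fatty acid synthase, differed by -0.79 and ACLY, which supplies its acetyl-CoA, by -0.39. LPCAT1, which remodels phosphatidylcholine and makes surfactant lipid, read 8.34 with dihydroberberine and 10.57 untreated, and HILPDA, an inhibitor of lipolysis on lipid droplets, 9.20 with dihydroberberine and 11.28 untreated in a pair of probe sets that differed by -2.01 and -2.08.

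Most glycolysis and hypoxia genes had a negative difference, although their list was called neither higher nor lower, and respiratory genes differed little. Of 29 glycolysis and hypoxia genes, 8 had a positive and 21 a negative difference, with a median of -0.23. ALDOC, an aldolase, was 2.86-fold lower, with probe sets from -1.58 to -0.47, PFKFB4, a regulator of glycolytic flux, was 2.14-fold lower, and EGLN3, an oxygen-sensing prolyl hydroxylase, was at least 1.71-fold lower. NDRG1, a hypoxia-induced protein, was 2.15-fold higher, while GAPDH differed by -0.05 and SLC2A1, the glucose transporter GLUT1, by 0.30. PDK3, a kinase that inactivates pyruvate dehydrogenase, was at least 2.95-fold lower. Of 36 complex I subunits, 30 had a negative difference with a median of -0.16, and NDUFC2 alone was past 2-fold, at 10.58 with dihydroberberine and 12.08 untreated. The 34 subunits of complexes II to V had a median of -0.10 and none past 2-fold, and cytosolic ribosomal proteins, 39 in number, lay between -0.10 and 0.29.

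Genes of cell division were lower by small amounts in most members. Of 42 DNA replication genes 37 had a negative difference, with a median of -0.48, a lowest value of -1.46 and a highest of 0.05. FEN1, which trims Okazaki fragments, read 9.84 with dihydroberberine and 11.30 untreated, with all 3 probe sets past 2-fold, and GINS1, a subunit of the replicative helicase, 9.94 with dihydroberberine and 11.15 untreated. The helicase subunits MCM2 to MCM7 differed by -0.75, -0.59, -0.85, -0.23, -0.30 and -0.67, a negative value in each. Of 49 mitotic genes 43 were negative, with a median of -0.35, and the kinesins KIF20A and KIF11 and the mitotic transcription factor FOXM1 were 2.33-fold lower, 2.01-fold lower and 2.14-fold lower, while the proliferation marker MKI67 differed by -0.02. CCNF, cyclin F, a ubiquitin ligase subunit of G2, read 7.17 with dihydroberberine and 9.33 untreated (4.48-fold lower). Of 19 G1 and S cyclins and brakes, 16 had a negative difference, with a median of -0.49. CCNE2, a cyclin of S phase entry, was at least 1.67-fold lower, and E2F3, an activating E2F factor, was 2.15-fold lower, with probe sets from -1.11 to -0.42. CDKN1A, the CDK inhibitor p21, differed by 0.62, whereas the 23 p53 targets had a median of -0.01. SKP2, the ubiquitin ligase subunit that removes p27, read 7.47 with dihydroberberine and 8.70 untreated.

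Chromatin regulators were lower on the dihydroberberine array, in probe sets that did not always match, and on the array where the Alu and 18S controls were lower too. Of 36 histone lysine methyltransferases and demethylases 29 had a negative difference, with a median of -0.32, and of 36 genes of histone acetylation and chromatin remodelling 29 had one, with a median of -0.36. SETD1B, a histone H3 methyltransferase found at active promoters, read 7.19 with dihydroberberine and 9.51 untreated in its 1 probe set over the floor. HDAC4, a class IIa histone deacetylase that SIK kinases hold in the cytoplasm, read 8.12 with dihydroberberine and 10.03 untreated, also from 1 probe set. HIRA, a histone chaperone, read 7.72 with dihydroberberine and 9.91 untreated (4.58-fold lower), but its other probe set gave -0.58. ARID1A and ARID1B, alternative DNA-binding subunits of the BAF remodelling complex, were 2.68-fold lower and 2.65-fold lower, with probe sets up to -0.04 and -0.67. BRD3, a reader of acetylated histones, was 2.04-fold lower, with probe sets up to -0.07. CREBBP, an acetyltransferase, was 2.60-fold lower, with probe sets from -1.99 to -0.23, and NSD2, a histone H3 methyltransferase, 2.02-fold lower, with 9 probe sets from -1.20 to 0.17. In ARID1A, CREBBP and NSD2 only some of the probe sets were therefore lower by 2-fold. KDM2A, a demethylase at CpG islands, was 2.00-fold lower. KDM5B, another demethylase, and CHD1, a remodeller, differed by 0.50 and 0.56. Of 12 Kruppel-like factors 9 had a negative difference, with a median of -0.30, led by KLF11, which was at least 1.89-fold lower but whose other probe set gave -0.02.

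Several splicing factors were lower in many probe sets at once. SRSF1, an SR protein that selects exons, read 10.68 with dihydroberberine and 12.19 untreated, and all 6 of its probe sets lay between -1.72 and -1.38. SRSF6 and SRSF2 were 2.71-fold lower and 2.26-fold lower, and SRSF5 differed by -0.90 with 5 of 10 probe sets past 2-fold. LUC7L3, a factor of the early spliceosome, was 2.12-fold lower, with probe sets up to -0.10. TRA2A, a related splicing activator, read 8.30 with dihydroberberine and 10.56 untreated (4.81-fold lower), yet 1 of its 5 probe sets gave 0.64. Over the list of 34 splicing factors the median was -0.37, 24 members had a negative difference and 5 were 2-fold lower. CLK1, a kinase of SR proteins, differed by 0.66, and HNRNPA1, an abundant RNA-binding protein, by 0.06. SRRT, which links the cap-binding complex to RNA processing, read 9.09 with dihydroberberine and 10.33 untreated, with 5 of 7 probe sets past 2-fold.

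MAT2A, the enzyme that makes S-adenosylmethionine, read 10.64 with dihydroberberine and 12.77 untreated, and each of its 6 probe sets was past 2-fold, from -2.14 to -1.25. EIF5, a translation initiation factor, read 10.67 with dihydroberberine and 12.09 untreated, also past 2-fold in all 6, and TENT5A, which extends the poly(A) tails of messenger RNAs, 9.58 with dihydroberberine and 11.42 untreated in 5 of 5. HIPK2, a kinase of stress-induced apoptosis, read 10.22 with dihydroberberine and 11.84 untreated, with 6 of 7 probe sets past 2-fold and the remaining 1 at 0.08. RNF145, a sterol-responsive ubiquitin ligase, read 9.43 with dihydroberberine and 11.04 untreated, with probe sets from -1.61 to -0.36. CUL3, the scaffold on which KEAP1 and other adaptors build ubiquitin ligases, read 8.68 with dihydroberberine and 11.20 untreated (5.74-fold lower), and its 3 probe sets lay between -2.52 and -2.36. The other cullins did not share this size: CUL1 differed by -0.14, CUL2 by 0.03, CUL4A by -0.08, CUL4B by 0.23 and CUL5 by -0.60. KEAP1 differed by -0.60. Of 25 NRF2-driven genes, HMOX1 alone was past 2-fold, at 8.22 with dihydroberberine and 9.38 untreated. Among all genes compared, 1.06% were 2-fold higher and 3.54% 2-fold lower.

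**Figure D3:**
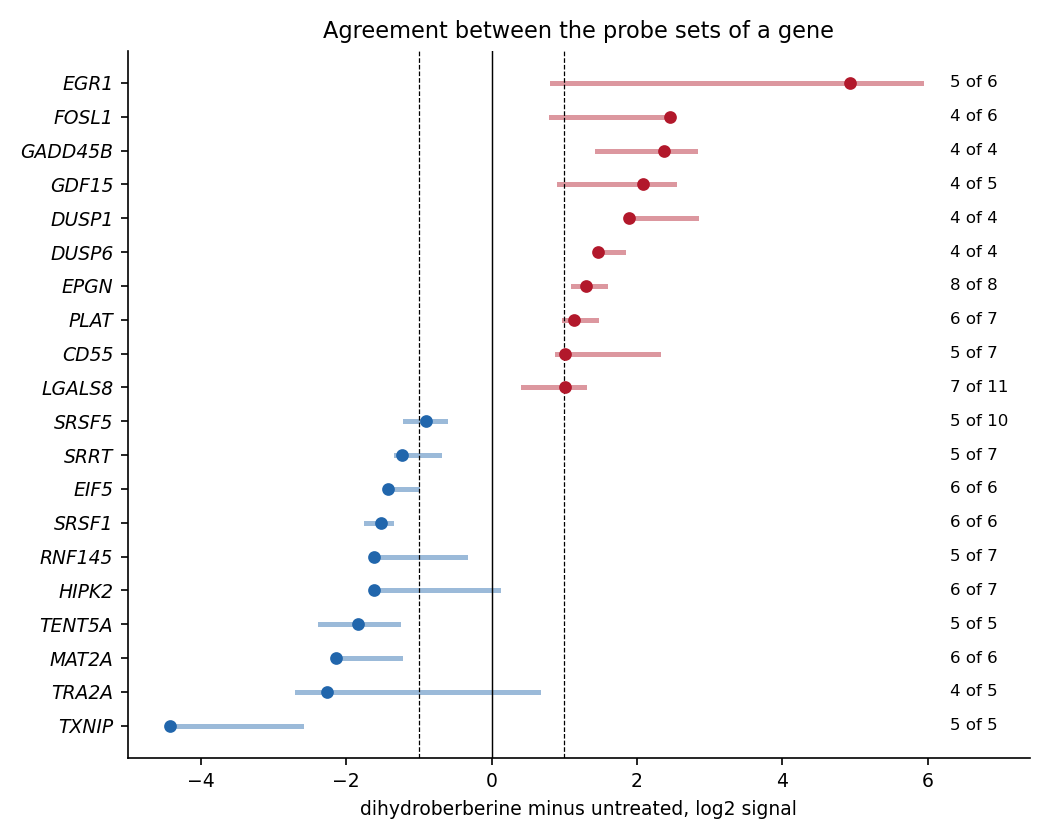
Difference in log2 signal, dihydroberberine minus untreated, of the 10 genes a direction with the most probe sets past 2-fold; the point is the probe set of highest mean signal, the bar spans the gene's probe sets over the floor and the dashed lines mark 2-fold. Numbers at the right give probe sets past 2-fold of all over the floor: 8 of 8 in EPGN and 6 of 6 in MAT2A, SRSF1 and EIF5, whereas the bars of HIPK2 and TRA2A reach past 0.

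Among the other lowest genes, NT5DC2, a protein with a nucleotidase domain, read 7.87 with dihydroberberine and 9.95 untreated, and UNC119B, which carries myristoylated cargo to cilia, 8.18 with dihydroberberine and 10.23 untreated. GET1, the membrane receptor for tail-anchored proteins, read 8.05 with dihydroberberine and 10.05 untreated, with 3 probe sets within -2.01 to -1.93. KCNE4, a regulatory subunit of potassium channels, read 10.24 with dihydroberberine and 12.21 untreated, and OLFM1, a secreted olfactomedin, 6.94 with dihydroberberine and 8.98 untreated. ZBED1, a zinc finger factor of ribosomal protein genes, read 9.26 with dihydroberberine and 11.18 untreated, and CSPG5, a transmembrane proteoglycan, 6.91 with dihydroberberine and 8.81 untreated. LINC00473, a long noncoding RNA induced by cyclic AMP, read 7.52 with dihydroberberine and 9.45 untreated. Of the genes under the floor on the dihydroberberine array only, ZC3HAV1, an antiviral zinc finger protein, was at least 6.64-fold lower, with probe sets from -3.35 to -0.07. CD14, the lipopolysaccharide co-receptor, was at least 4.19-fold lower, TRIB1, a pseudokinase adaptor, at least 3.46-fold lower, and PIGW, an enzyme of glycosylphosphatidylinositol anchors, at least 3.22-fold lower. FOXA1, a pioneer factor of lung and foregut epithelium, read 10.01 with dihydroberberine and 11.53 untreated (2.88-fold lower), while SOX9, a factor of the distal lung bud, read 11.16 with dihydroberberine and 10.15 untreated (2.01-fold higher).

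Smaller lists held isolated differences. SMAD6, an inhibitor of BMP signalling, was 2.83-fold lower with probe sets from -1.50 to 0.23, while ID1 and ID3, direct targets of that pathway, differed by 0.66 and 0.72. PER2, a repressor of the circadian clock, was at least 2.61-fold lower, CRY1, its partner, differed by -0.92, and BMAL1, the activator, by 0.30, while BMAL2, its paralogue, was at least 1.14-fold higher. Cytosolic heat shock genes had a negative difference in 13 of 17, with a median of -0.40. DNAJA1, a co-chaperone of HSP70, read 10.45 with dihydroberberine and 11.66 untreated, BAG3, a co-chaperone of protein quality control, was 2.01-fold lower, and HSPA1B, the inducible HSP70, differed by -0.68. SGK1, a kinase induced by glucocorticoids and cell stress, was 2.33-fold higher, and TPM4, a tropomyosin of actin filaments, 2.30-fold higher. ITGA2, the collagen-binding integrin chain, was at least 1.57-fold higher. CYP1B1, a cytochrome P450 induced through the aryl hydrocarbon receptor, was 2.19-fold higher, while AHR itself differed by -0.33. Of 10 genes of the receptor and its targets, 5 had a positive and 5 a negative difference, with a median of 0.09. TIPARP and CYP1B1 were the members past 2-fold, while SLC7A5 differed by -0.93 and NQO1 by -0.04. ABCD3, a peroxisomal transporter, CTSZ, a lysosomal cathepsin, and MTF1, the metal-responsive factor, were 2.16-fold lower, 2.20-fold lower and 2.07-fold lower, the last with probe sets up to 0.05.

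**Figure D4:**
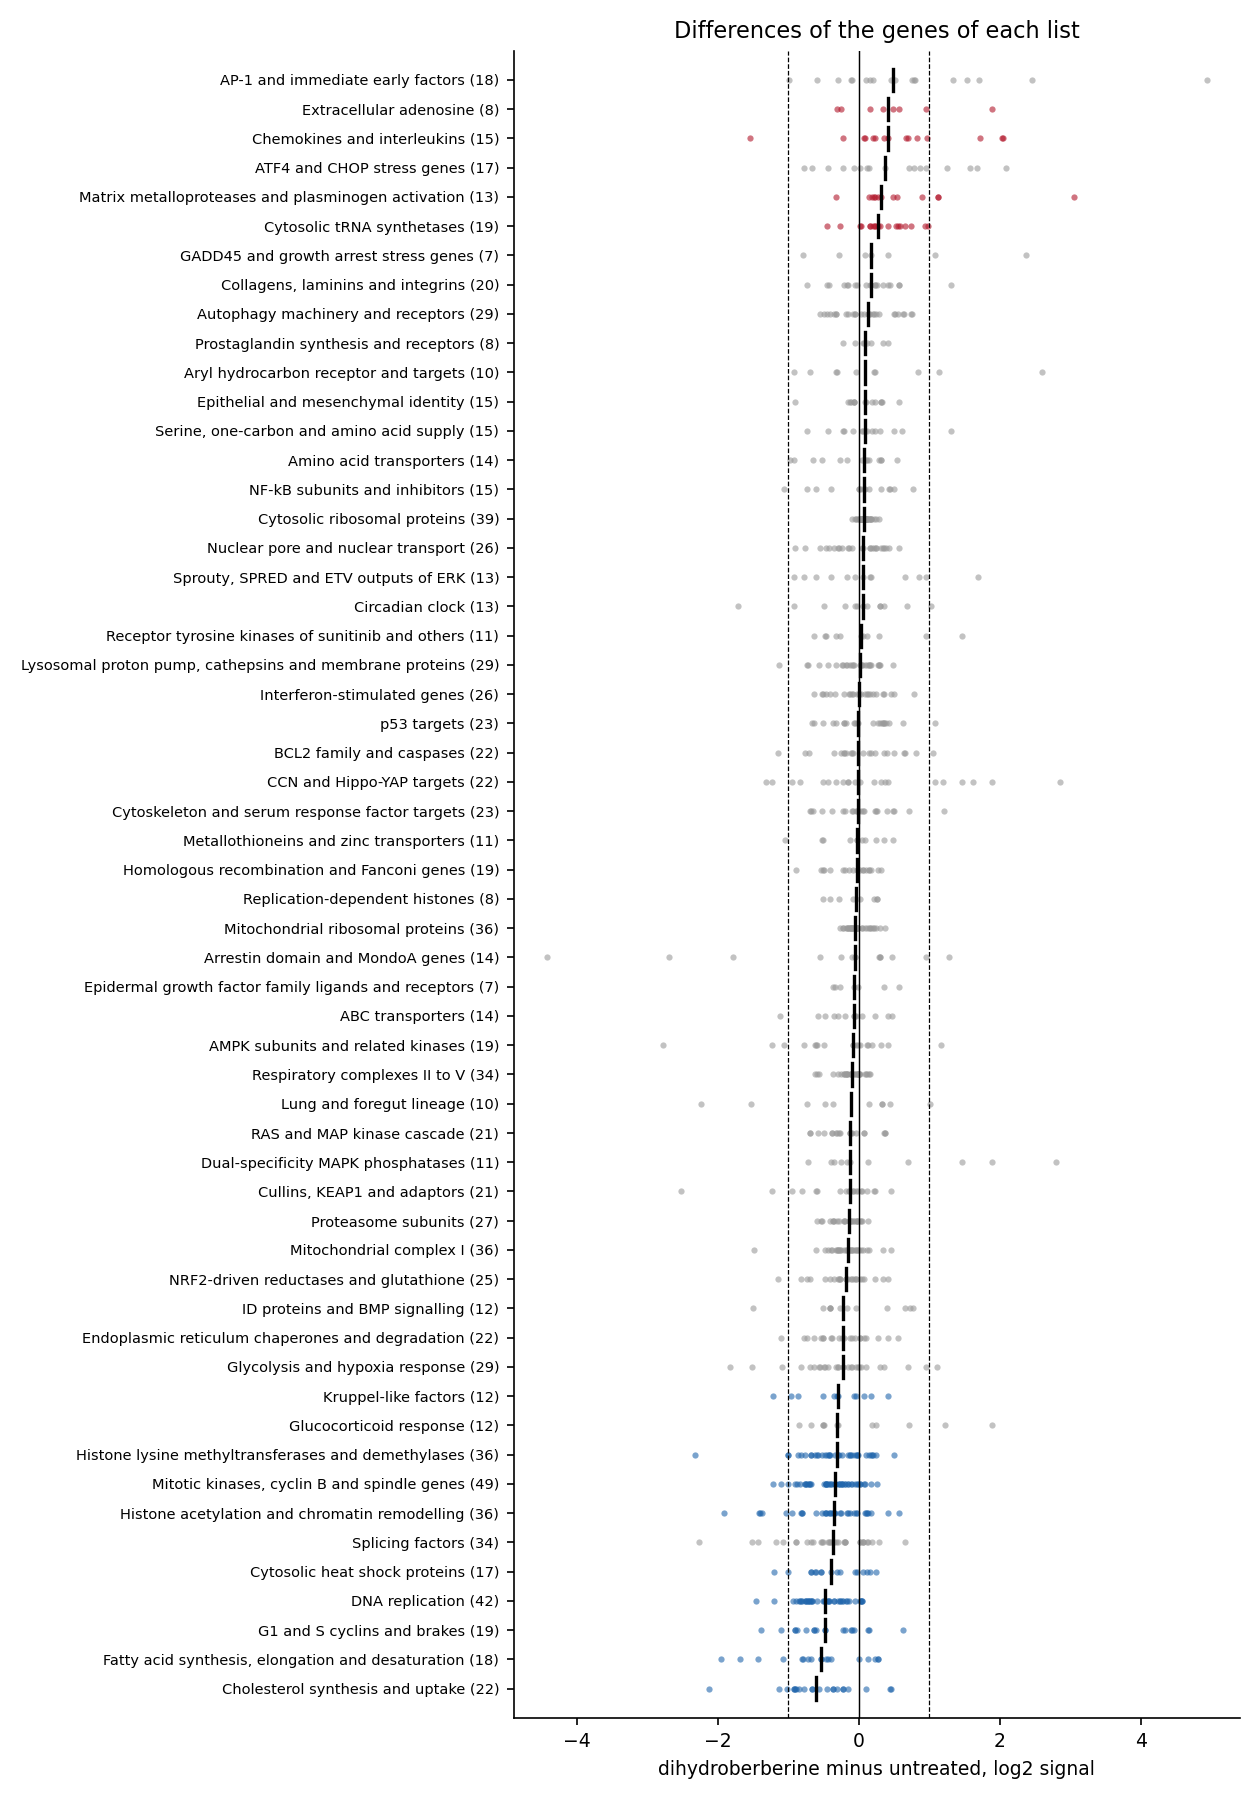
Difference in log2 signal, dihydroberberine minus untreated, of every gene over the floor in each of 56 lists (points; the number in brackets counts them), ordered by the median (black bar); dashed lines mark 2-fold. Red lists have a median at least 0.2 above, and blue lists at least 0.2 below, that of all genes with at least 75% of members of that sign: 4 lists are red, 9 blue and 43 grey.

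By the rule that a list is described as higher or lower where its median lay at least 0.2 from that of all genes and at least 75% of its members had that sign, 4 of the 56 lists were higher, 9 were lower and 43 were neither. The higher lists were chemokines and interleukins, cytosolic tRNA synthetases, matrix proteases with plasminogen activation, and extracellular adenosine. The lower lists were cholesterol, fatty acid, heat shock, DNA replication, mitotic, and G1 and S genes, both chromatin lists and the Kruppel-like factors. Among the lists of neither kind were autophagy (median 0.13), lysosome (0.02), proteasome (-0.14) and nuclear pore genes (0.06).

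The other 2 arrays held a measurement of dihydroberberine that shares no array with this one, the combination minus sunitinib. There 75 of the same 10791 genes (0.695%) were 2-fold higher and 12 (0.111%) 2-fold lower. The 4 lists that were higher with dihydroberberine alone had medians there of 0.42 for chemokines and interleukins, 0.02 for tRNA synthetases, 0.37 for matrix proteases and -0.03 for extracellular adenosine. The ATF4 and CHOP list, called neither higher nor lower, had a median there of 0.04. Of the lower lists, cholesterol and DNA replication had the lowest medians there, at -0.36 and -0.30. Those of the chromatin lists were 0.04 for methylation and -0.03 for acetylation and remodelling. Mitotic, fatty acid, G1 and S, and heat shock genes had medians there of -0.18, -0.14, -0.13 and -0.09, and Kruppel-like factors 0.22. Of the 20 highest genes, 20 had a positive difference there and 14 were at least 2-fold higher, with a median of 1.86 with dihydroberberine alone and 1.24 there. Of the 20 lowest genes, 19 had a negative difference there but 2 were at least 2-fold lower, with a median of -2.07 alone and -0.59 there. TXNIP read 8.30 with the combination and 12.14 with sunitinib, a difference of -3.84, and INSIG1 8.89 with the combination and 10.06 with sunitinib, a difference of -1.17. CXCL8 had 1.72 alone and 2.55 there, and AXL 1.46 and 1.76. CUL3 read 11.31 with the combination and 11.07 with sunitinib, a difference of 0.24, whereas alone it was -2.52. SETD1B, HIRA, MAT2A and HDAC4, at least 2-fold lower with dihydroberberine alone, differed by -0.13, -0.09, -0.22 and -0.08 there. Among genes lower in many probe sets, EIF5, HIPK2, RNF145 and SRSF1 differed by 0.08, 0.07, -0.06 and -0.26 there. SRRT and TENT5A differed by -0.66 and -1.11. The Alu and 18S controls, lower on the dihydroberberine array than on the untreated one, differed by 0.00 and 0.02 there, and their part in the lower counts was not tested.

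**Figure D5:**
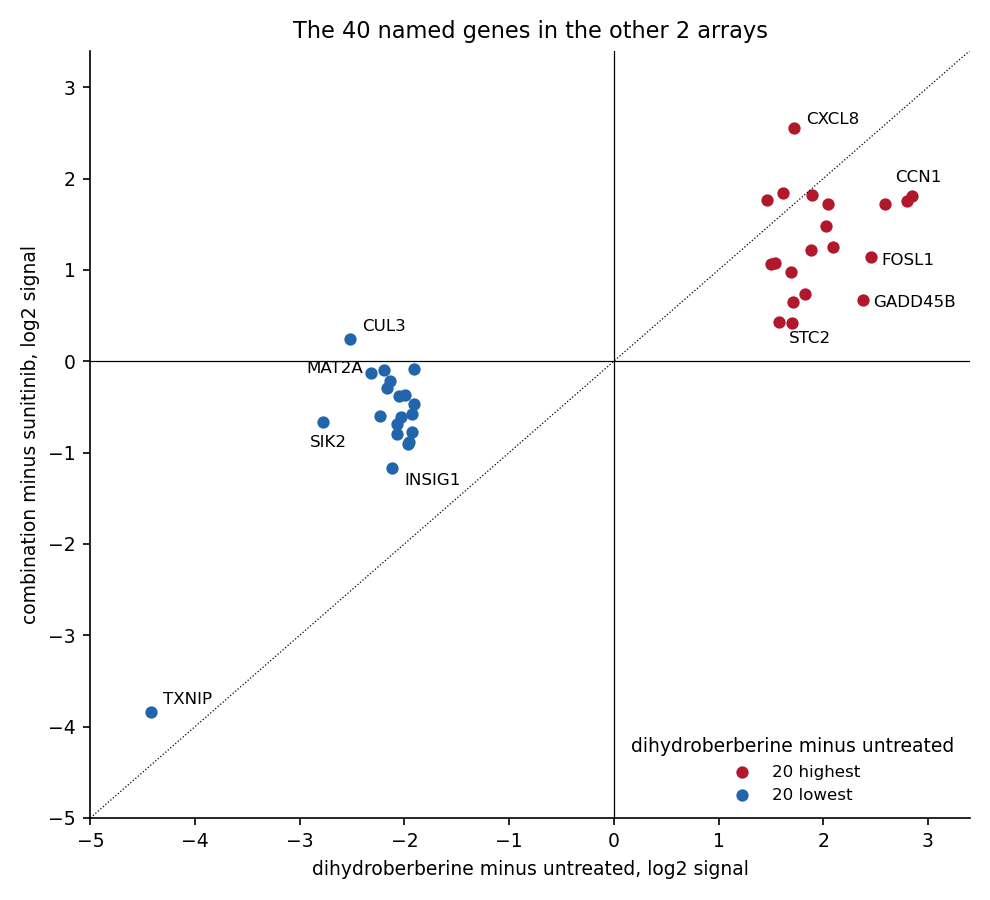
Difference in log2 signal of the 40 named genes, combination minus sunitinib (vertical axis) against dihydroberberine minus untreated (horizontal axis), 4 different arrays; the dotted line marks equal differences. All 20 highest genes (red) lie above 0 on the vertical axis, while 19 of the 20 lowest (blue) lie below it and TXNIP and INSIG1 alone among them pass -1.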

How the data were processed

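RNA of 4 A549 cultures was measured on 1 array each. TRIZOL extraction and biotin labelling with a GeneChip 3′ IVT Express kit are stated per the labels' protocols. Per the submitters' processing notes the software was Affymetrix Expression Console. The design text names an Agilent array, but the probe set names and controls are Affymetrix ones. The deposited values are log2 signals per probe set. Neither their summarization nor their normalization is given in the sources used here. The table held 49293 gene and 102 control probe sets. Platform annotation gave 1 symbol for 44988, several for 1832 and none for 2473, and RefSeq gene names (GRCh38.p14) matched 44961 by gene ID.

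Groups were read from the sample titles. Differences, counts at 2-fold, list medians and motif counts were computed with Python 3.11.15, NumPy 2.4.6 and pandas 2.3.3, with counting tested on simulated data. The number of arrays, 1 per group, limits the precision and allows no test. A fold against an array under the floor of 6.75 was taken against the floor and is written as at least that size.

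Members, lists, the floor and the naming rule were chosen with earlier results of these data known. Genes named were the 20 highest and 20 lowest over the floor on both arrays with all probe sets of that sign, 5 a direction with 1 array under the floor, list members past 2-fold or else up to 5 of largest difference with others to show the range, and 10 a direction with the most probe sets past 2-fold. Listed genes with no probe set of their own in the tables used were not analysed here.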

Additional observations from a re-analysis of the deposited data

Results flagged for a closer look

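MIR22HG, the host transcript of a microRNA, drew attention because its difference had opposite signs in the contrasts of dihydroberberine that share no array. It read 6.79 with dihydroberberine and 7.82 untreated, a difference of -1.03, with its 3 probe sets between -1.83 and -1.03. With the combination it read 8.82 and with sunitinib 7.65, a difference of 1.17. The difference between these was not tested.

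Background probes, which no comparison used, also carried signal. Those with 15 to 25 G or C bases had a median log2 signal of 7.15 on the dihydroberberine array, against 6.70 untreated, and both 6.95 with the combination and 6.99 with sunitinib lay between them. The median of the dihydroberberine array lay above the floor of 6.75, and its part in the levels of dim genes was not tested.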

How the results depend on the processing

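No paired analysis was possible because each group held 1 array. The count of 114 higher genes became 72 with the floor at the 75th percentile and 60 where at least 2 probe sets had to pass 2-fold, and the 382 lower genes became 251 and 154. Both settings left fewer genes eligible, and the second also changed the criterion. With signals under the floor raised to it the counts were 93 higher and 338 lower. Averaging the probe sets of a gene left 82 higher and 161 lower. Quantile normalization of the arrays gave 142 higher and 298 lower, centring on the median of all genes 122 and 343, and subtraction of the median of each signal bin, an alternative added after seeing the data, 126 and 344. In the combination against sunitinib, which replaces both arrays and was also added after seeing the data, the counts were 75 higher and 12 lower. There 3 of the lists called higher or lower had medians of the opposite sign, lists called neither not being counted: histone lysine methyltransferases and demethylases at 0.0402, Kruppel-like factors at 0.217 and extracellular adenosine at -0.0294. The cause was not tested. Of 370 values of named genes under the mean and the median of probe sets, the higher floor, signals raised to the floor, quantile normalization and centring, 288 moved by less than the spread between probe sets, 82 by more and 0 changed sign. These genes were picked for large differences or many probe sets past 2-fold, and many had to have probe sets of a single sign. The absence of sign changes follows largely from this choice, so it is no check on the signs. Signal near the background probes limits genes close to the floor.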

Other observations

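Long noncoding RNAs had a higher median difference than protein-coding genes. Of 103 over the floor, 72 had a positive difference, with a median of 0.19 beside -0.03 for protein-coding genes. Of the 103, 0 were 2-fold higher and 6 were 2-fold lower, beside 1.06% and 3.54% of all genes. The dimmest bin of all genes had a median difference of 0.17, and the part of dim signal in the median of these RNAs was not tested. Beside LINC00473 and MIR22HG, the lower ones were NORAD, which sequesters Pumilio proteins (-1.08), DLEU2, host of a microRNA cluster (-1.21), LINC00205 (-1.26) and CTBP1-DT (-1.17). All of these except LINC00473 were named after their values were seen.

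The next families were also picked after values were seen, so their counts are descriptions. Of 8 small nucleolar RNA host genes, whose introns carry small nucleolar RNAs, 7 had a positive difference, with a median of 0.35 and SNHG12 at 0.50, whereas the median of the combination minus sunitinib was 0.02. Among 6 insulin-like growth factor binding proteins, IGFBP1, the hepatic stress-responsive member, read 7.58 with dihydroberberine and 5.90 untreated (at least 1.78-fold higher), IGFBP7 9.93 with dihydroberberine and 8.49 untreated (2.72-fold higher), and IGFBP3, the main serum carrier, 12.30 with dihydroberberine and 13.09 untreated (1.73-fold lower). Of 33 RNA-binding motif proteins 21 had a negative difference, with a median of -0.33. RBM14, a paraspeckle coactivator, was 2.70-fold lower. Of 21 forkhead factors 14 had one, with a median of -0.29, FOXK1, a regulator of glycolytic genes, was 2.35-fold lower and FOXQ1 was 2.08-fold higher.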
